A study of Mus musculus with 20 samples.

Results

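The 3' untranslated region (UTR) of the mouse gene Mad2l1 carries a dense series of adenosine-to-inosine editing sites, and their levels are described here site by site. The members are every listed site annotated to Mad2l1 with at least 50 reads in both libraries of at least 1 group, which kept 62 of the 62 sites listed for the gene. In the whole series 48425 sites were listed and 9065 of them, in 323 genes, met the same rule. All 62 sites lie on the plus strand of chromosome 6 between positions 66490064 and 66490914 (build mm9) and all are annotated as 3' UTR. Positions are printed as deposited, and their first base may be numbered 0 or 1.

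The study measured editing in mouse embryonic fibroblasts, connective tissue cells grown from embryos, by amplifying 557 loci from cDNA and sequencing the products. The libraries come from 5 lines: ADAR1_NULL, in which ADAR1 is absent; P150_KO, in which the p150 form of ADAR1 is knocked out; STAT2_NULL, which lacks STAT2; ADAR2_NULL, which lacks ADAR2; and ADAR1_WT, called wild type here. Each line was sampled after interferon and untreated, with 2 libraries per line and treatment, giving 10 groups and 20 libraries. Which interferon was used, at what dose and for how long is not given in the sources read here.

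Each genotype is 1 line, and no label names wild type as a matched control of the others. Every contrast between lines therefore compares 2 lines as well as 2 genotypes, and the 2 cannot be told apart. No label gives the origin of the 2 libraries of a group, which may be technical repeats. The p-values reflect only the spread between such libraries. That spread was estimated over all 10 groups and many sites together, not from the compared groups alone. The series' design text speaks of 6 lines, and the remaining one was not analysed here. Only editing was measured, so the loss of each targeted gene could not be checked from RNA levels, and the fibroblast label could not be checked against markers: 0 of 8 fibroblast marker genes and 0 of 7 marker genes of other cells had a covered site.

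Mad2l1 encodes MAD2, a spindle assembly checkpoint protein that holds back the anaphase-promoting complex until chromosomes are attached. ADAR enzymes deaminate adenosines in double-stranded RNA, which in 3' UTRs usually forms where inverted repeats pair, and inosine is read as guanosine in cDNA. ADAR1 is made as a constitutive, mainly nuclear p110 form and as p150, whose promoter responds to interferon and which is largely cytoplasmic. ADAR2 is the product of Adarb1, and STAT2 is a transcription factor of type I interferon signalling. No genome sequence was used here, so whether these sites lie in a paired stretch was not tested.

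The sites were packed closely. Over a span of 850 bases the median distance between neighbours was 3 bases, and 29 sites stood in 11 runs of directly adjacent positions, the longest of them 4 sites at 66490206 to 66490209. The longest gap, 403 bases, separated a first block of 44 sites within 238 bases from a second block of 18 sites within 209 bases. Read depth over the 62 sites ran between 375 and 10712 reads per library, and all 62 sites had at least 50 reads in all 20 libraries. Depth stepped along the region: the first 11 sites (66490064 to 66490132) had a median of 1083 reads, the 20 sites at 66490201 to 66490277 had 8146.5, and the second block had 464. Sites of similar depth and position can share reads and are not independent of one another. Total coverage per library over all sites was 4389326 to 5559674 reads.

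The mean editing level over the 62 sites differed between the groups. In interferon-treated libraries it was 0.275% and 0.256% in ADAR1-null, 0.567% and 0.390% in p150-knockout, 5.02% and 5.27% in STAT2-null, 8.53% and 9.54% in ADAR2-null and 7.88% and 10.9% in wild type. In untreated libraries it was 0.572% and 0.540% in ADAR1-null, 0.676% and 0.639% in p150-knockout, 4.78% and 4.80% in STAT2-null, 1.80% and 1.46% in ADAR2-null and 3.81% and 3.30% in wild type. The highest mean belonged to interferon-treated wild type, 9.40% ± 2.15 (SD, n = 2), whose libraries enclosed those of interferon-treated ADAR2-null, 9.03% ± 0.718 (SD, n = 2). Below them stood STAT2-null with interferon and untreated, untreated wild type, untreated ADAR2-null, untreated p150-knockout, untreated ADAR1-null, interferon-treated p150-knockout and interferon-treated ADAR1-null, in that order. Neighbours in this order overlapped at the top pair and between untreated ADAR1-null and interferon-treated p150-knockout, and nowhere else. The order depends in part on the averaging: the median over sites was 0.456% in untreated ADAR2-null and 0.433% in untreated wild type, and edited reads over all reads gave 0.825% in untreated p150-knockout and 0.849% in untreated ADAR1-null. In the ADAR1-null and p150-knockout groups the median over sites was between 0.159% and 0.344%. How much of such low levels is sequencing or PCR error was not tested. With 2 libraries a group these levels are a description.

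**Figure D1:**
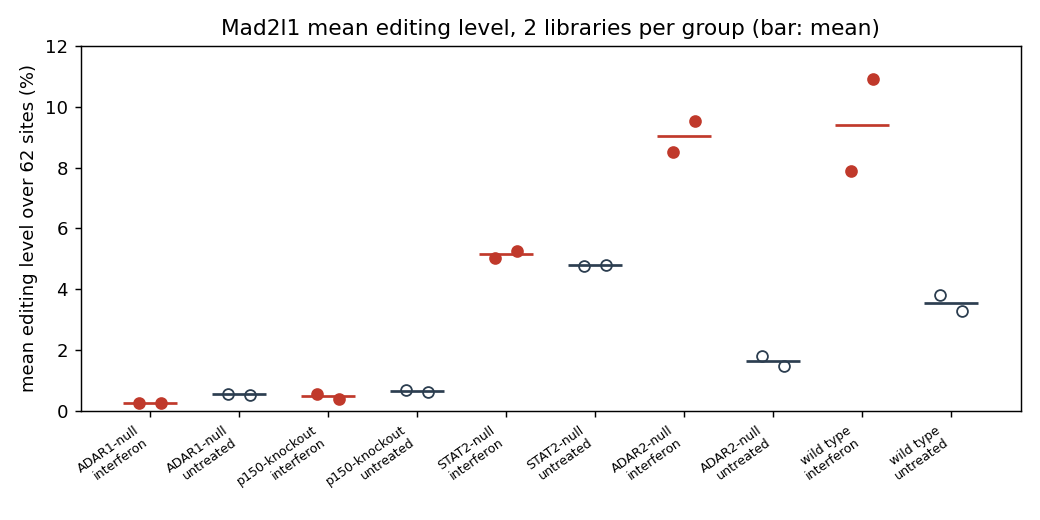
Mean editing level in percent over the 62 Mad2l1 sites, with 1 point per library, a bar at the mean of the 2 libraries, interferon (filled) left of untreated (open). Interferon libraries of ADAR2-null and wild type sit between 7.88% and 10.9%, both STAT2-null groups between 4.78% and 5.27%, and the ADAR1-null and p150-knockout groups under 1%.

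A minority of the adenosines carried most of the editing. In untreated wild type 26 of 62 sites reached 1% and 8 reached 10%. The 5 highest were 66490075 (31.6% ± 2.42), 66490120 (19.8% ± 1.97), 66490206 (16.3% ± 0.885), 66490208 (13.7% ± 0.455) and 66490275 (12.8% ± 5.21; SD, n = 2 each), and the top 5 made up 42.7% of the summed level. After interferon 40 sites reached 1% and 19 reached 10% in wild type. In ADAR2-null these numbers were 41 and 20 with interferon, against 19 and 2 untreated, and in STAT2-null they were 33 and 11 under both treatments. In ADAR1-null only 2 sites reached 1% with interferon and 6 untreated, and in p150-knockout 6 and 8, with 0 sites at 10% in any of these 4 groups. Over all groups 44 sites reached 1% at least once and 18 never did. Of those 44, 25 were highest in interferon-treated wild type, 14 in interferon-treated ADAR2-null, 3 in STAT2-null and 2 in untreated wild type.

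Neighbouring adenosines differed widely in level. In interferon-treated wild type 66490065 stood at 25.3% ± 9.22, while 66490064 beside it stood at 0.432% ± 0.384 and 66490066 at 8.27% ± 2.48 (SD, n = 2 each). At 66490119 and 66490120 the levels were 16.1% ± 1.49 and 55.0% ± 5.47 in the same libraries. The 6 sites at 66490281 to 66490290, which directly follow 66490277, averaged 0.245% ± 0.0188 in interferon-treated wild type and 0.356% ± 0.157 untreated, while 66490277 itself stood at 8.75% ± 4.57 and 9.74% ± 3.48. In the heat map of all 62 sites some rows, such as 66490075 and 66490120, are bright in all STAT2-null, ADAR2-null and wild-type libraries. Others, such as 66490065 and 66490839, are bright with interferon in wild type (25.3% and 11.8%) and ADAR2-null (20.9% and 7.30%) and stay under 3% in STAT2-null and in the untreated groups.

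**Figure D2:**
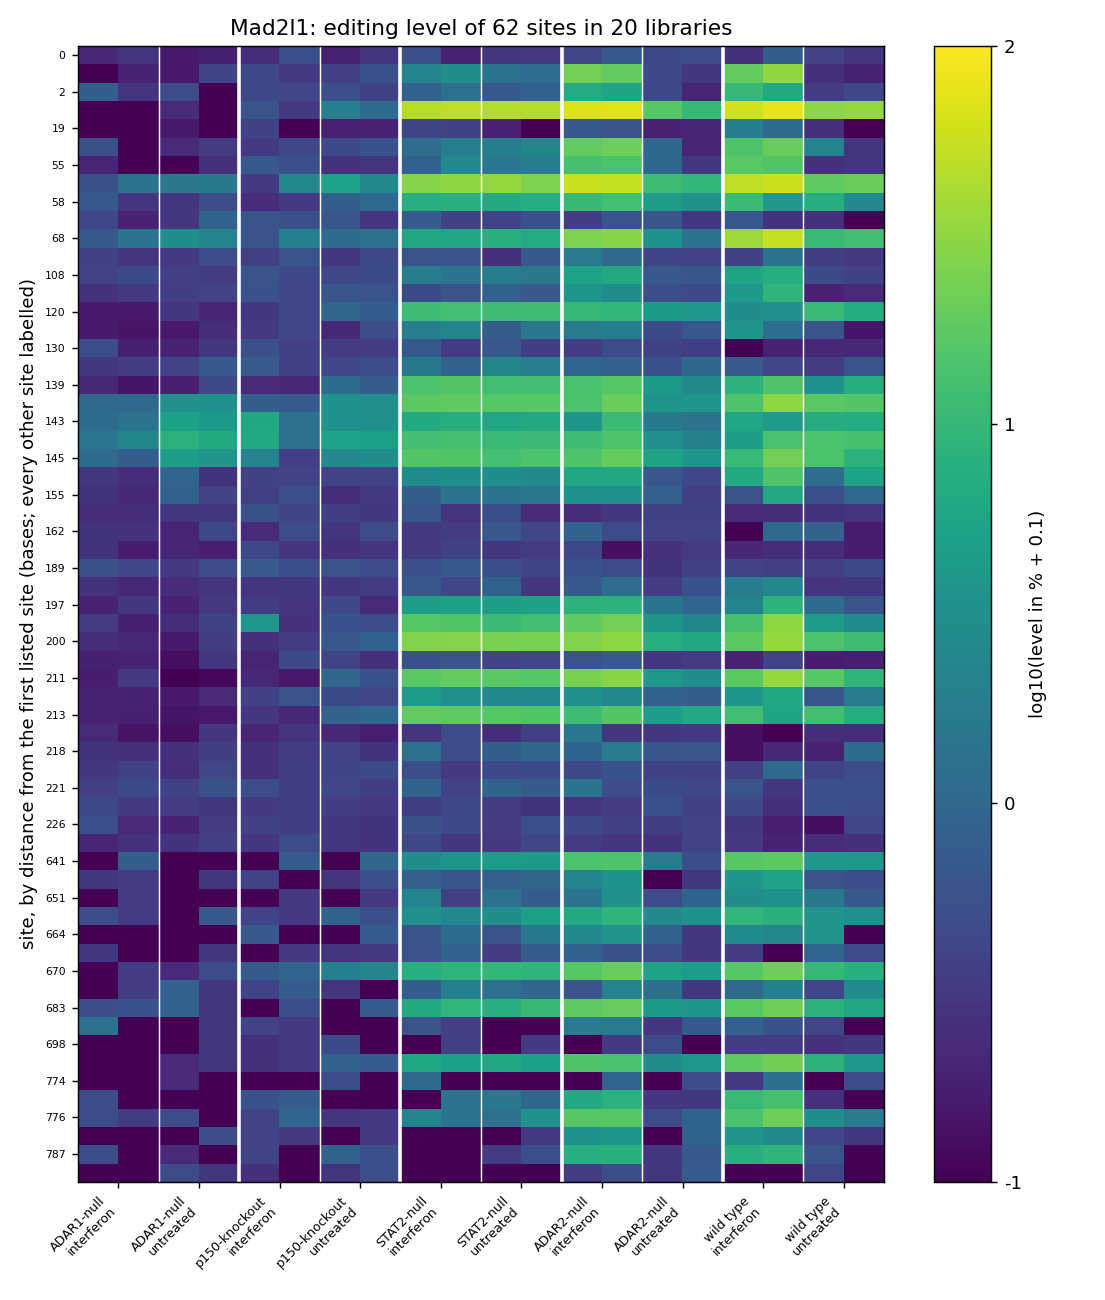
Editing level of the 62 Mad2l1 sites (rows, labelled by distance in bases from the first listed site) in 20 libraries (columns, interferon left of untreated within each line), coloured by log10 of the level in percent plus 0.1. The row 11 bases from the first site is the brightest in the STAT2-null, ADAR2-null and wild-type libraries, and the rows at 142 to 145 bases keep colour in the ADAR1-null and p150-knockout libraries.

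Each comparison was tested site by site with edgeR's quasi-likelihood model of edited and unedited reads, fitted over all sites of the series that had at least 50 reads in every library compared and averaged at least 1% over them. A site was called where its Benjamini-Hochberg adjusted p was under 0.05. A site that averages 1% only because of its higher group had to differ, so counts of such sites describe the data and support nothing by themselves.

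In wild type, interferon raised editing at many Mad2l1 sites in both blocks, but unevenly along the first. The first 11 sites averaged 20.5% and 24.7% with interferon, against 6.31% and 6.39% untreated. The 20 sites at 66490201 to 66490277 averaged 6.02% and 11.5%, against 5.37% and 4.61% untreated. The 3 sites at 66490184 to 66490194 averaged 2.22% and 1.43%, against 3.69% and 2.40% untreated. Read depth differed too. At 66490075 the wild-type libraries together had 2387 reads with interferon and 2383 untreated. At 66490203 they had 9483 against 14229, at 66490184 5177 against 8307, and at 66490839, in the second block, 951 against 1100. At 66490184 ADAR2-null had 6954 against 9681, and STAT2-null 9713 against 9329. Whether depth bears on these levels was not tested. Of 39 tested sites 18 were called higher and 1 lower, and the other 23 sites averaged under 1%. Over all sites tested in this comparison 40.4% were called higher and 0.654% lower. The median difference of the 39 sites was 6.43 percentage points, against 5.27 over all tested sites, and 34 of the 39 differences were above 0. The share of Mad2l1 sites called was close to that of the series.

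The largest difference was at 66490075, with 63.1% and 79.2% in interferon-treated wild type, against 29.9% and 33.3% untreated. Both treated libraries lay above both untreated ones, and the difference was 39.6 ± 8.22 percentage points (SE; edgeR adjusted p = 0.0415). At 66490132 the levels were 37.0% and 54.3% with interferon, against 10.5% and 12.2% untreated, 34.3 points apart (adjusted p = 0.0243). These are sites that were already well edited before treatment.

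Other sites were close to unedited in untreated cells. Site 66490065 had 18.8% and 31.8% in interferon-treated wild type, against 0.156% and 0.091% untreated, where 3 of 2380 reads were edited (log2 odds ratio 7.92, edgeR adjusted p = 4.27e-05). Site 66490119 had 17.1% and 15.0% with interferon, against 0.156% and 0.182% untreated (adjusted p = 0.000301). Site 66490839, in the second block, had 10.5% and 13.1% with interferon, against 0.169% and 0% untreated (adjusted p = 0.00186). In an edgeR fit to the wild-type libraries alone the call at 66490839 was lost (adjusted p = 0.0521). At these sites the groups were far apart, and the calls held in all 4 fits that left out 1 library.

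Further large increases were at 66490263 (22.0% ± 12.5 with interferon, against 3.58% ± 1.17 untreated), 66490112 (17.4% ± 3.50 against 1.18% ± 1.42) and 66490840 (17.7% ± 5.45 against 2.31% ± 1.04; SD, n = 2 each), with edgeR adjusted p of 0.0165, 0.0058 and 0.0218. Site 66490120, the second highest of all, had 51.2% and 58.9% in interferon-treated wild type, against 18.4% and 21.2% untreated, and was not called although the groups did not overlap. One site went the other way: 66490184 had 2.93% and 3.09% with interferon, against 10.5% and 7.03% untreated, and fell by 5.75 percentage points (adjusted p = 0.0313).

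The wild-type calls depend on single libraries. Without the second interferon library 10 sites were called and without the second untreated library 9, against 19 with all libraries, and 7 of the 19 were called in every such fit. The calls at 66490075 and 66490132 were lost without the second interferon library (adjusted p = 0.17 and 0.109), the first untreated (0.132 and 0.0987) and the second untreated library (0.107 and 0.0757). The second interferon library and the second untreated library also decided 66490263 (0.073 and 0.0839 without them) and 66490840 (0.0786 and 0.122), and the second untreated library decided 66490112 (0.0672). The fall at 66490184 was lost in all 4 such fits (0.0596 to 0.173). A fit to the wild-type libraries alone called 6 sites, and limma called 18. By edgeR the call at 66490075 was also lost with a replicate block (adjusted p = 0.0534), a coverage minimum of 20 reads (0.0507) and no minimum level (0.111). By limma 66490263 (adjusted p = 0.0586) and 66490184 (0.0773) were not called.

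**Figure D3:**
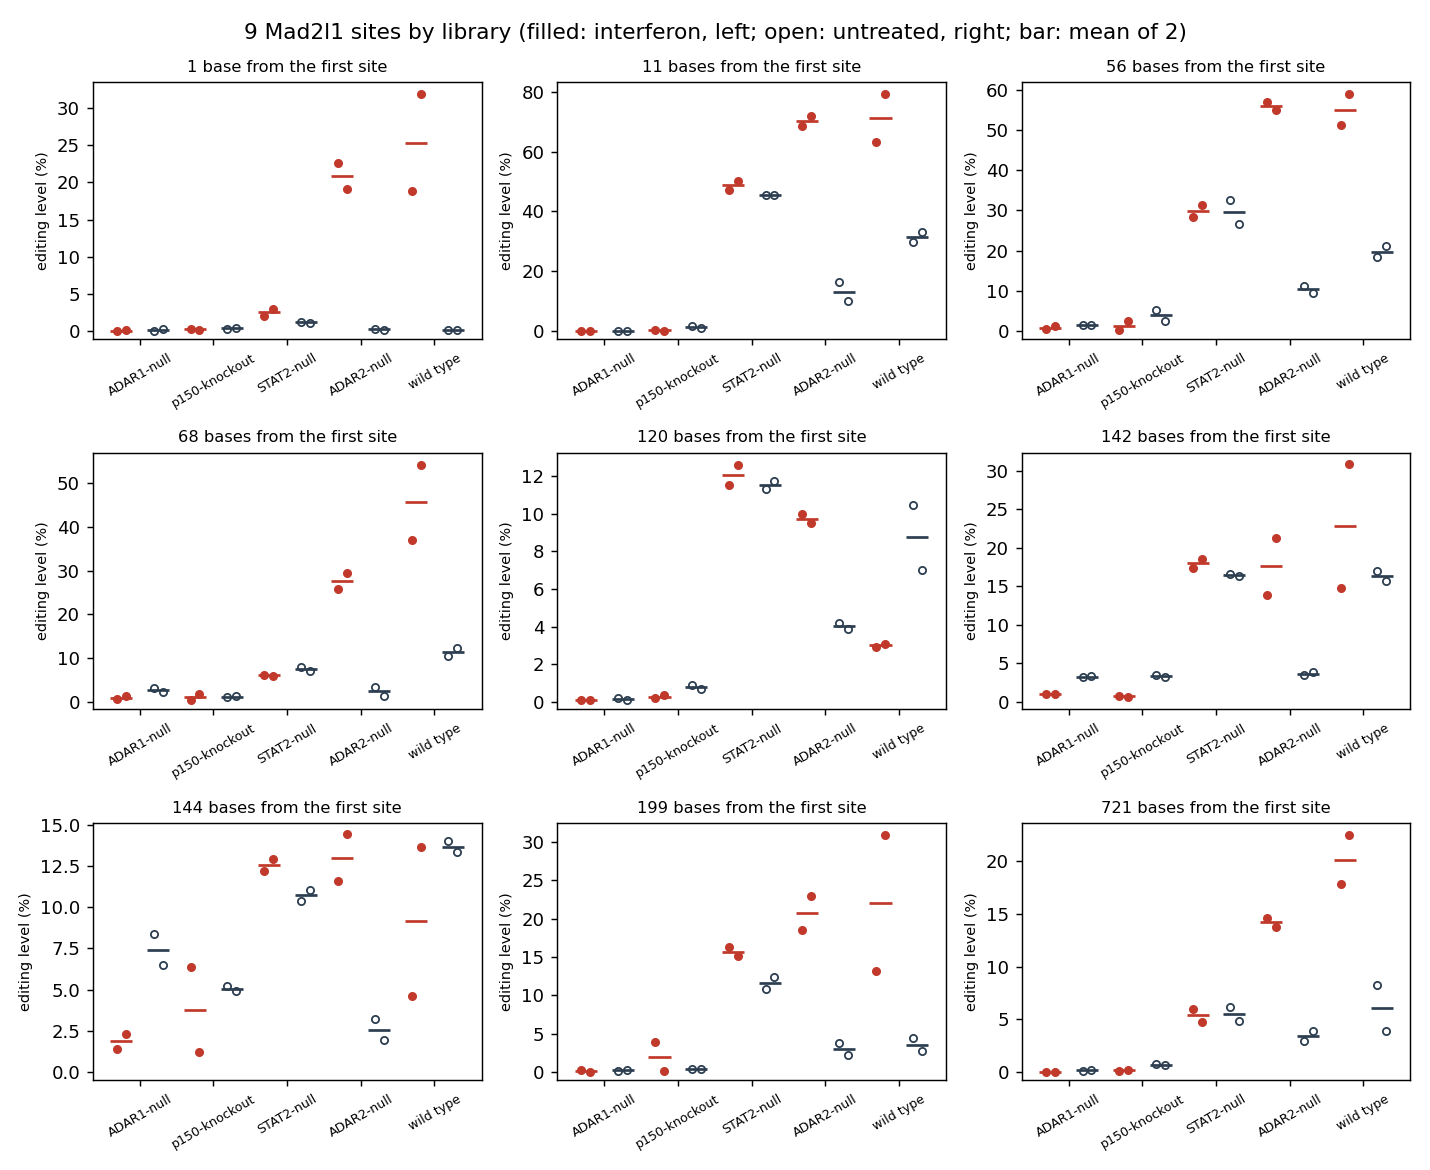
Editing level in percent of 9 Mad2l1 sites in each of the 20 libraries, by line, with interferon (filled, left) beside untreated (open, right) and a bar at the mean of 2 libraries; vertical scales differ between panels. The site 1 base from the first one stays under 1% in the ADAR1-null and p150-knockout libraries and reaches 31.8% in interferon-treated wild type, and the site at 120 bases is lower with interferon than untreated in wild type.

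Sorted by their untreated level in wild type, the sites are described here in classes chosen after the values were seen. A site of the lowest class was tested only where its interferon level lifted the mean to 1%, so the classes' counts cannot be set against each other. Of 36 sites under 1% untreated 11 were called higher, 2 were tested and not called and 23 were not tested. Of 11 sites between 1% and 5%, 5 were called higher and 6 were not called. Of 15 sites at 5% or more, 2 were called higher, 1 lower and 12 were not called. The run of 4 adjacent sites at 66490206 to 66490209 belongs to the last class: its mean over the 4 sites was 8.92% and 17.9% in interferon-treated wild type, against 13.0% and 11.1% untreated. The treated libraries stood on either side of the untreated ones, and 0 of its 4 sites were called.

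In ADAR2-null fibroblasts interferon raised editing at sites of both blocks. Of 37 tested sites 28 were called higher and 0 lower, where 52.2% of all sites tested in this line were called higher and 0.0873% lower. The median difference was 8.19 percentage points, against 4.78 over all tested sites, and 37 of 37 differences were above 0. The counts were 19 to 26 when 1 library was left out, and 16 of the 28 sites were called in every such fit.

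At 66490075 the level was 68.6% and 72.0% in interferon-treated ADAR2-null, against 16.4% and 10.03% untreated, a difference of 57.1 ± 3.61 percentage points (SE; edgeR adjusted p = 0.00187). At 66490120 it was 57.0% and 55.0% with interferon, against 11.3% and 9.54% untreated (45.6 points, adjusted p = 0.0062). At 66490132 it was 25.7% and 29.5%, against 3.41% and 1.33% untreated (25.2 points, adjusted p = 0.00157), and at 66490275 it was 25.1% and 29.1%, against 3.98% and 2.83% (23.7 points, adjusted p = 0.000289). The treated libraries were far above the untreated ones at all 4 sites, and these 4 calls held in every fit that left out 1 library.

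The wild-type and ADAR2-null treatment comparisons share no libraries. They had 16 sites called higher in both, which is 88.9% of the 18 wild-type calls and 57.1% of the 28 ADAR2-null calls. Of the 37 Mad2l1 sites tested in ADAR2-null 28 were called higher, so many wild-type calls would be shared in any case. Over all tested sites 40.4% were called higher in wild type and 52.2% in ADAR2-null. The overlap over all tested sites was not counted, so nothing is read from these shares. The 2 sites called only in wild type were 66490186 and 66490256. Site 66490256 was not tested in ADAR2-null, where it averaged 0.847% with interferon and 0.355% untreated. The 12 called only in ADAR2-null included 66490120 and the whole run at 66490206 to 66490209, whose mean was 10.96% and 16.5% in interferon-treated ADAR2-null, against 3.44% and 2.67% untreated. A call in 1 line and not the other is no test of their difference. Tested directly, the difference of the interferon responses, ADAR2-null minus wild type, gave 0 called Mad2l1 sites among 38 (0.0873% of all tested sites were called higher and 0.0873% lower), with 7 sites at an unadjusted p under 0.05, 0 calls by limma and 1 call without the second interferon-treated wild-type library. Site 66490184, which fell in wild type, had 9.97% and 9.51% in interferon-treated ADAR2-null, against 4.21% and 3.89% untreated, and was not called there.

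**Figure D4:**
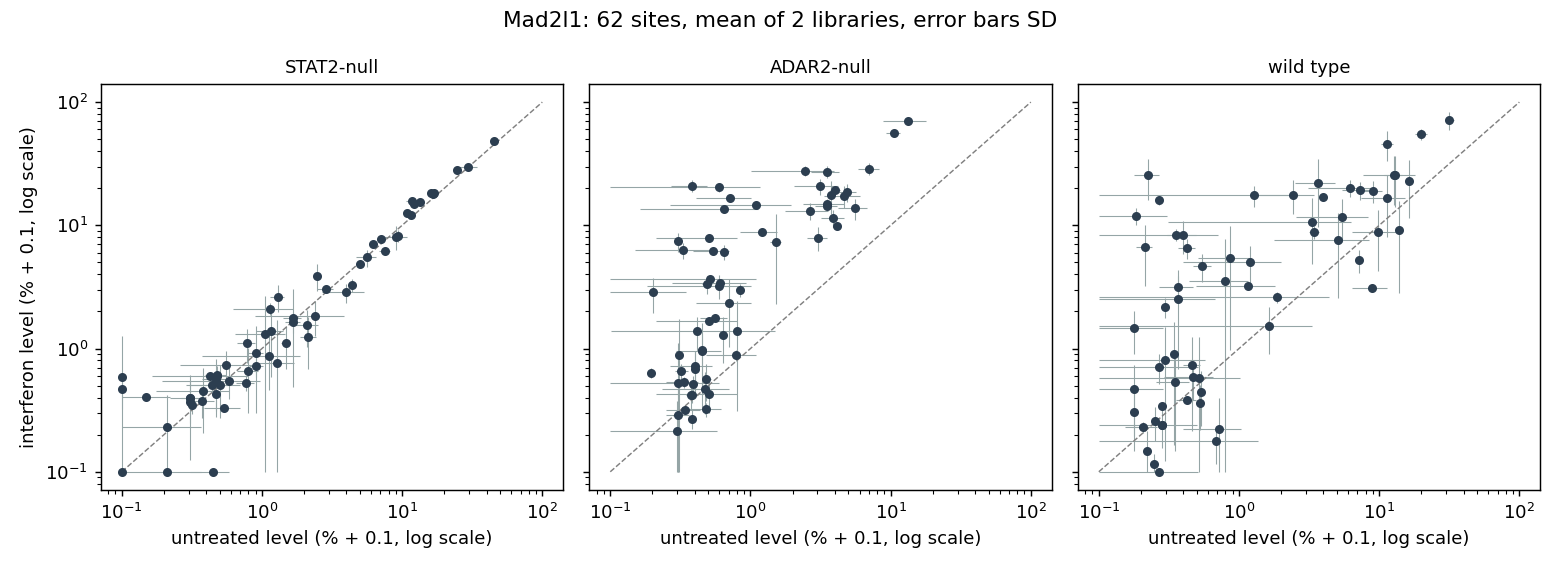
Interferon level against untreated level (percent plus 0.1, both axes on a log scale) of the 62 Mad2l1 sites in STAT2-null, ADAR2-null and wild type; points are means of 2 libraries, error bars are SD and the dashed line marks equal levels. The STAT2-null points follow the line, and in ADAR2-null the 37 tested sites lie above it.

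Without interferon, ADAR2-null cells were edited less than wild type at part of the sites. Of 23 tested sites 5 were called lower and 0 higher, where 12.9% of all tested sites were called lower and 0.68% higher. The median difference was -4.17 percentage points, against -2.30 over all tested sites, and 23 of 23 differences were below 0. Site 66490206 had 3.49% and 3.81% in ADAR2-null, against 16.9% and 15.7% in wild type (edgeR adjusted p = 0.00599). Site 66490208 had 3.23% and 1.93%, against 14.0% and 13.3% in wild type (adjusted p = 0.0181), and site 66490207 had 1.52% and 1.33%, against 7.10% and 6.96% (adjusted p = 0.0217). The groups did not overlap at any of these 3 sites, which stand side by side in the run of 4. Site 66490275 averaged 3.40% ± 0.813 in ADAR2-null and 12.8% ± 5.21 in wild type (SD, n = 2 each; adjusted p = 0.0454).

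These calls were fragile. Leaving out 1 library gave 3 calls without the first and 1 without the second wild-type library, and 2 without the first and 0 without the second ADAR2-null library. The call at 66490206 was lost without the second ADAR2-null library (adjusted p = 0.0528), that at 66490208 without it (0.137) or the second wild-type library (0.0656), and those at 66490207 (0.0538 to 0.13) and 66490275 (0.0625 to 0.195) in all 4 fits. A fit to these 2 groups alone called 0 sites, and limma called 2.

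With interferon, ADAR2-null and wild type were not separated at any Mad2l1 site by the test. Of 41 tested sites 0 were called, where 0.445% of all tested sites were called higher and 1.56% lower. At an unadjusted p under 0.05 there were 2 sites, limma called 0, and 1 site was called without the second wild-type library. The differences, ADAR2-null minus wild type, ran between -18.0 and 6.73 percentage points with a median of -0.485, against -1.88 over all tested sites. Over the 62 sites the mean levels of the 2 groups had a Pearson correlation of 0.972 (a description, since sites share reads and libraries).

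In STAT2-null fibroblasts interferon changed no Mad2l1 site by the test. Of 32 tested sites 0 were called, and 0% of the 658 sites tested in this line were called in either direction. By an unadjusted p under 0.05 there were also 0 Mad2l1 sites, and limma called 0. The differences ran between -1.34 and 4.08 percentage points with a median of 0.254, against 0.279 over all tested sites. At 66490075 the level was 47.0% and 50.3% with interferon, against 45.5% and 45.5% untreated, and at 66490065 it was 2.07% and 2.97%, against 1.30% and 1.09%. The site profiles of the 2 treatments had a Pearson correlation of 0.995 over the 62 sites.

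Untreated STAT2-null cells were nevertheless edited at many Mad2l1 sites. Against untreated wild type 2 of 29 tested sites were called higher and 0 lower, where 1.24% of all tested sites were called higher and 1.71% lower. The median difference was 0.807 percentage points, against -0.751 over all tested sites. Site 66490261 had 4.76% and 5.05% in STAT2-null, against 1.01% and 0.509% in wild type (edgeR adjusted p = 0.0278), and site 66490201 had 2.24% and 1.84%, against 0.244% and 0.495% (adjusted p = 0.0258). The groups did not overlap at either site. Neither call held: with 1 library left out 0 to 2 sites were called, with 0 without either STAT2-null library or the second wild-type library, and a fit to these groups alone and limma called 0 each. At 66490075 the difference was larger but not called, with 45.5% and 45.5% in STAT2-null, against 29.9% and 33.3% in wild type.

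With interferon, 13 of 39 tested sites were called lower and 2 higher in STAT2-null than in wild type, where 39.8% of all tested sites were called lower and 1.15% higher. Of the 39 differences 32 were below 0 and 7 above, and their median was -4.88 percentage points, against -5.53 over all tested sites. Site 66490132 had 6.21% and 5.93% in STAT2-null, against 37.0% and 54.3% in wild type (edgeR adjusted p = 0.00474), and site 66490065 had 2.07% and 2.97%, against 18.8% and 31.8% (adjusted p = 0.00503). Site 66490112 averaged 1.45% ± 0.517 in STAT2-null and 17.4% ± 3.50 in wild type (adjusted p = 0.0131), and site 66490840 averaged 1.75% ± 0.597 and 17.7% ± 5.45 (SD, n = 2 each; adjusted p = 0.0137). Untreated wild type had 11.4% ± 1.17 at 66490132 and between 0.124% and 2.31% at the other 3.

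Called higher in interferon-treated STAT2-null than in wild type were 66490184 and 66490277. Site 66490184 had 11.5% and 12.6% in STAT2-null, against 2.93% and 3.09% in wild type (edgeR adjusted p = 0.00711). Site 66490277 had 18.8% and 17.9%, against 11.97% and 5.52% (adjusted p = 0.0461). Both are sites that wild type edited at 8.76% ± 2.44 and 9.74% ± 3.48 without interferon (SD, n = 2 each).

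Of these 15 calls 3 held in every fit with 1 library left out, and without either STAT2-null library 6 sites were called. The call at 66490132 was among them. That at 66490065 was lost without the first STAT2-null library (adjusted p = 0.0541), that at 66490184 without the second (0.0597), that at 66490112 without either (0.0924 and 0.0523), and those at 66490840 (0.0505 to 0.105) and 66490277 (0.141 to 0.303) without either STAT2-null library or the second wild-type one. The difference of responses, STAT2-null minus wild type, was called at 7 of 38 sites, 7 lower and 0 higher (13.7% lower and 0.0975% higher over all tested sites), with a median of -6.59 percentage points against -6.56 over all tested sites. It was called at 4 sites without the first interferon-treated or the first untreated STAT2-null library. The comparisons against wild type share the wild-type libraries.

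In ADAR1-null fibroblasts Mad2l1 editing was far lower than in wild type. Untreated, 18 of 22 tested sites were called lower than in wild type and 0 higher, where 49% of all tested sites were called lower and 0.259% higher, and 13 of the 18 held in every fit with 1 library left out. The median difference was -6.45 percentage points, against -4.04 over all tested sites. At 66490075 the level was 0.132% and 0% in ADAR1-null, against 29.9% and 33.3% in wild type (edgeR adjusted p = 7.51e-06). At 66490275 it was 0% and 0.00975%, 1 edited read in 20973, against 16.5% and 9.14% in wild type (adjusted p = 9.08e-08). At 66490120 it was 1.45% and 1.55%, against 18.4% and 21.2% (adjusted p = 0.00191). The ADAR1-null libraries were below the wild-type ones at all 3 sites, and also at 66490206, which averaged 3.25% ± 0.0317 in ADAR1-null and 16.3% ± 0.885 in wild type (SD, n = 2 each; adjusted p = 0.000288).

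With interferon, 38 of 38 tested sites were called lower in ADAR1-null, where 69.5% of all tested sites were called lower and 0% higher. Of these calls 35 held in every fit with 1 library left out. Over these 38 sites the median difference was -9.55 percentage points, against -7.06 over all tested sites. At 66490075 interferon-treated ADAR1-null had 0 edited reads of 1950, which allows a level of up to 0.154%, against 63.1% and 79.2% in wild type (edgeR adjusted p = 2.53e-07). At 66490120 it had 0.451% and 1.31%, against 51.2% and 58.9% in wild type (adjusted p = 2.26e-05), at 66490132 0.938% ± 0.529 against 45.6% ± 12.2 (adjusted p = 2.66e-05), and at 66490264 0.135% ± 0.0181 against 25.4% ± 10.99 (SD, n = 2 each; adjusted p = 4.44e-08). Amplicon reads carry no molecular identifiers, so this limit covers counting error only.

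Mad2l1 editing was also low in p150-knockout cells. Untreated, 16 of 22 tested sites were called lower than in wild type and 0 higher, where 32.5% of all tested sites were called lower and 0.58% higher. The median difference was -6.89 percentage points, against -3.25 over all tested sites. Site 66490075 had 1.86% and 1.04% in p150-knockout, against 29.9% and 33.3% in wild type (edgeR adjusted p = 0.00103), and site 66490275 had 0.879% and 0.470%, against 16.5% and 9.14% (adjusted p = 0.000232). Site 66490206 had 3.41% and 3.15%, against 16.9% and 15.7% (adjusted p = 0.00112), and these 3 calls held in every fit with 1 library left out. Without the first or the second p150-knockout library 7 and 8 sites were called, and without the first wild-type library 10. The call at 66490120, 5.23% and 2.56% in p150-knockout against 18.4% and 21.2% in wild type (adjusted p = 0.034), was lost in all 4 such fits (0.0567 to 0.186).

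With interferon, 35 of 38 tested sites were called lower in p150-knockout than in wild type and 0 higher, where 63.9% of all tested sites were called lower and 0.577% higher. Of the 35 calls 31 held in every fit with 1 library left out. At 66490075 the level was 0.494% and 0.220% in p150-knockout, against 63.1% and 79.2% in wild type (edgeR adjusted p = 1.06e-06). At 66490120 it was 0.212% and 2.42%, against 51.2% and 58.9% (adjusted p = 2.42e-05), and at 66490275 it was 0.0898% ± 0.0428 against 25.4% ± 11.3 (SD, n = 2 each; adjusted p = 7.77e-08). At 66490132 it was 0.494% and 1.87%, against 37.0% and 54.3% (adjusted p = 2.66e-05). Over the 38 sites the median difference was -9.46 percentage points, against -6.14 over all tested sites.

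**Figure D5:**
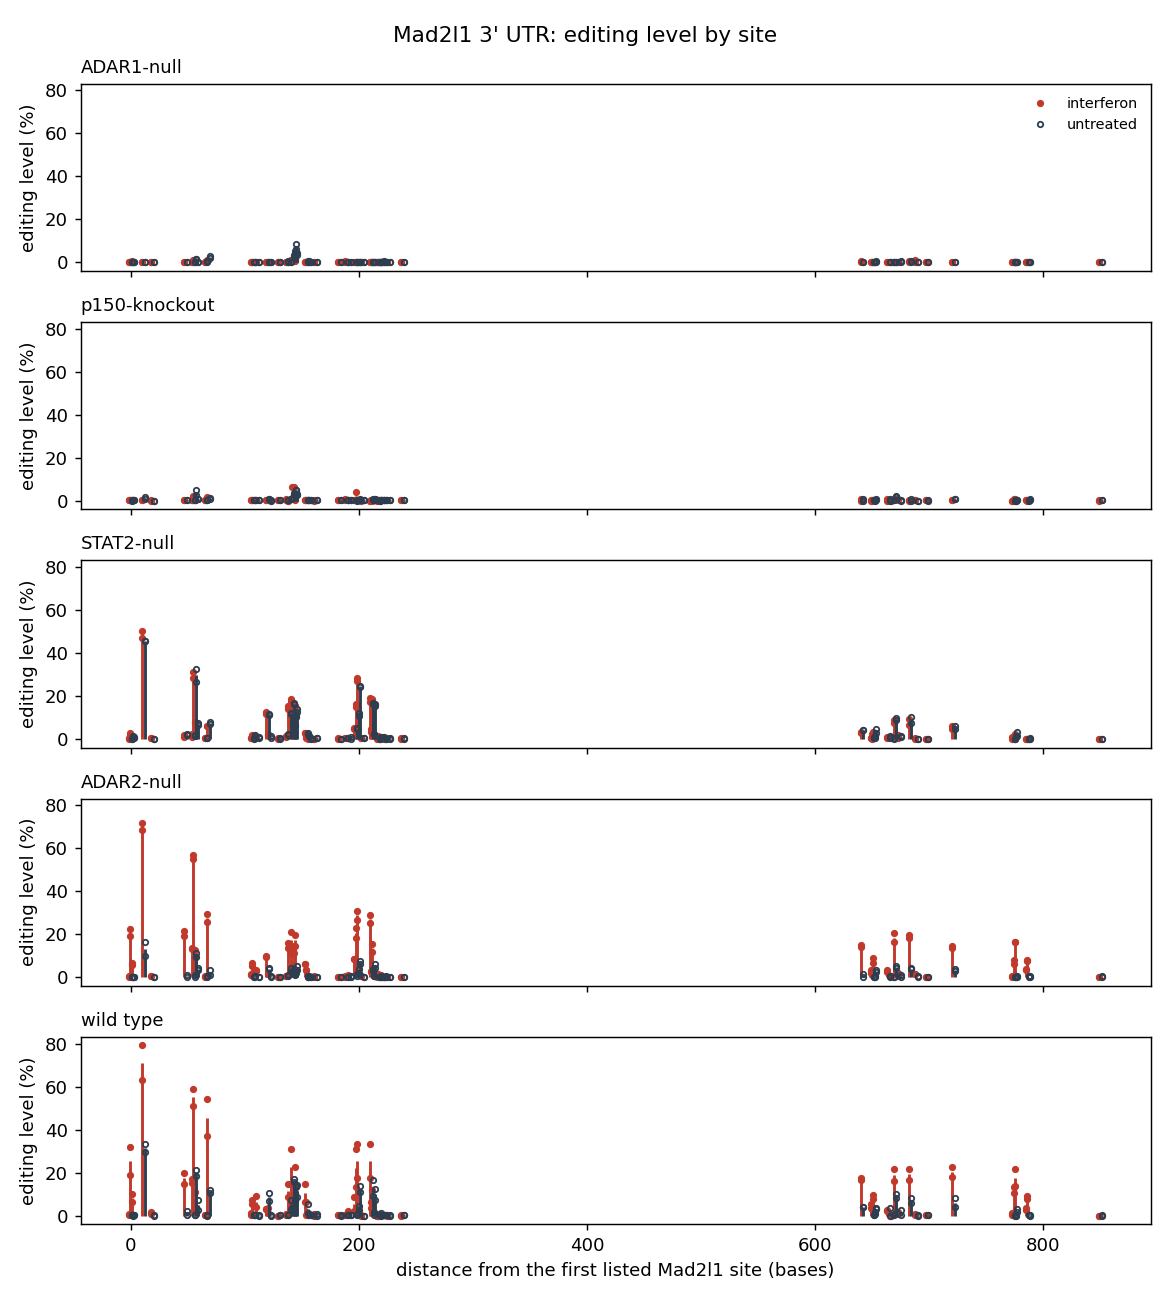
Editing level in percent of the 62 Mad2l1 sites by distance in bases from the first listed site, in 1 panel per line; filled points and lines are interferon and open points and lines untreated, each drawn slightly to either side of the site, with 1 point per library and the line up to the mean. The site 11 bases from the first is the tallest in STAT2-null, ADAR2-null and wild type, the site at 1 base is tall with interferon in ADAR2-null and wild type but not in STAT2-null, and the panels of ADAR1-null and p150-knockout stay under 10%.

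The sites that still reached 1% without p150 were few. Untreated, they were 6 in ADAR1-null, 66490120, 66490132 and the run 66490206 to 66490209, and the same 6 with 66490075 and 66490734 in p150-knockout. In untreated ADAR1-null the 5 highest were 66490208 (7.43%), 66490207 (4.70%), 66490209 (4.12%), 66490206 (3.25%) and 66490132 (2.58%), and the run of 4 held 56.6% of the summed level of all 62 sites. The same run held 29.6% in interferon-treated ADAR1-null, 31.6% in interferon-treated and 34.99% in untreated p150-knockout, and 21.9% in untreated wild type. The 5 highest sites of each group held 64.1% of the summed level in untreated ADAR1-null and 44.6% in untreated p150-knockout, against 42.7% in untreated wild type. Over the 62 sites the profile of untreated ADAR1-null had a Pearson correlation of 0.860 with untreated p150-knockout and 0.422 with untreated wild type, and untreated p150-knockout had one of 0.688 with untreated wild type. By rank (Spearman) these were 0.395, 0.276 and 0.694. Between the 2 untreated libraries of a line the rank correlation was 0.465 in ADAR1-null, 0.601 in p150-knockout and 0.750 in wild type. Ranks in ADAR1-null thus repeated poorly, so the rank correlations cannot show which line p150-knockout was nearer to. These correlations are descriptions.

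With interferon, no site in these 2 lines was called higher in the fit to all libraries with the 1% minimum. Without that minimum 1 site was called higher in ADAR1-null. With it, 0 of 6 tested ADAR1-null sites were called and 0% of all 114 tested sites were called in either direction, with an unadjusted p under 0.05 at 4 Mad2l1 sites and no limma call (0). All 6 differences were below 0, with a median of -2.78 percentage points against -0.997 over all tested sites. At 66490208 the level was 1.43% and 2.31% with interferon, against 8.40% and 6.47% untreated, and the mean of the run of 4 was 1.12% and 1.32%, against 5.36% and 4.39%. The treated libraries lay below the untreated ones in both.

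In p150-knockout 1 of 8 tested sites was called lower with interferon and 0 higher, where 1.65% of all tested sites were called lower and 0% higher. Site 66490206 had 0.707% and 0.640% with interferon, against 3.41% and 3.15% untreated (edgeR adjusted p = 0.0318). The call was lost without the first (adjusted p = 0.32) or the second untreated library (0.164), and by limma (0.0988), and 3 sites were called without the first interferon library, all lower, and 3 without the second, 1 of them higher and 2 lower. The 2 interferon libraries of this line differed strongly at neighbouring sites: 66490207 had 6.24% and 1.24%, against 3.31% and 3.13% untreated, 66490208 had 6.35% and 1.22%, against 5.19% and 4.91%, and 66490263 had 3.91% and 0.165%, against 0.468% and 0.382%. The first interferon library was high and the second low at all 3 sites, so the group mean of the run, 2.34% ± 2.12 (SD, n = 2), describes neither library.

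Set against ADAR1-null, which lacks p110 as well, untreated p150-knockout was called higher at 1 of 7 tested sites and lower at 0, where 9.21% of all tested sites were called higher and 2.63% lower. The other 55 sites averaged under 1% in these groups and were not tested. With the minimum level taken over all 20 libraries, 34 sites were tested, 5 called higher and 0 lower. That setting was chosen after the values were seen. A fit to these groups alone called 0 of 7. Site 66490734 had 1.88% and 2.19% in p150-knockout, against 0.128% and 0.397% in ADAR1-null (edgeR adjusted p = 0.0327). The call was lost without the first ADAR1-null library (adjusted p = 0.375), and without either p150-knockout library 0 sites were called. With interferon 0 of 6 sites were called, where 6.09% of all tested sites were called higher and 1.02% lower, with an unadjusted p under 0.05 at 1 site; limma called 0, and 3 sites were called without the second p150-knockout library.

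The responses of both lines without p150 were also tested against that of wild type. For p150-knockout minus wild type 14 of 35 sites were called lower and 0 higher (17.2% lower and 0% higher over all tested sites). For ADAR1-null minus wild type 7 of 35 were called lower and 0 higher (12.2% and 0.133%). The medians were -7.99 and -7.88 percentage points, against -7.00 and -7.55 over all tested sites. Fewer p150-knockout differences were called without the second interferon or second untreated wild-type library (9 each) and without either untreated p150-knockout library (6 each). The ADAR1-null count rose without the first interferon-treated wild-type library. It fell without the second, where the calls were not all lower. It was also smaller without the first untreated wild-type or the second interferon-treated ADAR1-null library.

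Among genes with at least 5 sites averaging 1% or more, 37 were compared with Mad2l1 by the Pearson correlation of their mean level over the 10 groups, using its 34 such sites. Among the 3 most alike were Ovca2 (0.953, 10 sites) and Ankrd28 (0.946, 17 sites). In interferon-treated wild type their means were 28.6% and 14.6%, beside 16.5% for Mad2l1, and in untreated STAT2-null they were 7.63% and 3.49%, beside 8.38% for Mad2l1. These genes were amplified from the same libraries, and the correlations are descriptions over 10 groups. High values were common: the gene ranked 19 of the 37 had 0.891 and the lowest had 0.626.

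Other genes of Mad2l1's pathway gave no comparison. Of 28 spindle checkpoint and anaphase-promoting complex genes 7 were listed, with 18 sites, and 0 of these sites were covered. Of 5 other genes on a list with long 3' UTR duplexes 1 was covered, Rpa1, a subunit of the single-stranded DNA binding protein RPA. Rpa1 had 9 of 20 tested sites called higher with interferon in wild type, 27 of 42 in ADAR2-null and 0 of 30 in STAT2-null, beside 18 of 39, 28 of 37 and 0 of 32 for Mad2l1. Over all tested sites 40.4%, 52.2% and 0% were called higher in these lines, and nothing particular to either gene is read from the counts.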

How the data were processed

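RNA editing was measured by multiplex RT-PCR of RNA from mouse embryonic fibroblasts, and products were indexed in 15 further PCR cycles, per the labels' protocols. Per the submitters' processing notes, BWA and SAMtools were used with build mm9; no source read here gives their versions or filters. Per the file headers, the authors deposited for each of 48425 sites its coverage and edited reads as counts and its editing level as a fraction. That deposited fraction equalled edited reads over coverage to 3 decimals, and levels were recomputed from the counts as percentages.

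Edited and unedited reads of all 20 libraries were modelled with edgeR 4.0.16 (R 4.3.3), with 1 coefficient per group and a term per library. Sites needed 50 reads in every library compared and a mean of 1% over them, and p-values were adjusted over all sites tested (Benjamini-Hochberg, 0.05). limma 3.58.1 on log2 odds with 0.5 reads added, other minimums, a fit to the compared groups alone, a replicate block and the leaving out of each library in turn were the alternatives. The code was tested on simulated data.

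Sites named were the 8 largest increases and decreases among wild-type interferon calls, 4 each in other comparisons, every call that fell with interferon and the 5 highest sites of untreated wild type and ADAR1-null; other sites were chosen after their values were seen. The members and gene lists were chosen with earlier results of these data known. Classes of untreated level were set after seeing the values, as were the alternatives with the minimum level over all 20 libraries and the crossed block. One of the 3 genes whose levels were most like those of Mad2l1 is not reported here.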

Additional observations from a re-analysis of the deposited data

Results flagged for a closer look

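The results here were picked out because the change with interferon differed between a line and wild type, tested as an interaction term in edgeR's quasi-likelihood model. The difference was called at 7 of 38 tested Mad2l1 sites in STAT2-null, 14 of 35 in p150-knockout and 7 of 35 in ADAR1-null, all of them lower. Over all tested sites 13.7%, 17.2% and 12.2% were called lower in these lines. Each value is the response in percentage points in the named line minus that in wild type, and the 3 comparisons share the wild-type libraries.

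In STAT2-null the largest differences among called sites were -23.9 at 66490065 (adjusted p = 0.00516), -16.8 at 66490112 (0.0464), -15.8 at 66490119 (0.0077) and -12.2 at 66490839 (0.0168). Site 66490112 was called in 2 of 8 fits that left out 1 library and 66490839 in 6 of 8, being lost without the first STAT2-null interferon (0.0584) or untreated library (0.0627). The other 2 named sites were called in 8 of 8. Larger differences that were not called stood at 66490075 (-36.4, adjusted p = 0.229), 66490132 (-35.6, 0.111) and 66490120 (-35.0, 0.256).

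In p150-knockout the largest among called sites were -40.7 at 66490075 (adjusted p = 0.0269), -37.8 at 66490120 (0.0318), -25.3 at 66490065 (0.00173) and -16.4 at 66490112 (0.0452). Site 66490065 was called in 8 of 8 such fits, 66490075 and 66490120 in 2 of 8 and 66490112 in 1 of 8. Site 66490132 was not called (-34.2, 0.103). At 66490277 the call was lower on the odds scale (log2 odds ratio -2.22, adjusted p = 0.0424), while the difference in percentage points was 0.301.

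In ADAR1-null the largest among called sites were -35.9 at 66490132 (adjusted p = 0.0313), -25.3 at 66490065 (0.00175), -15.9 at 66490119 (0.0365) and -8.75 at 66490206 (0.0313). Site 66490065 was called in 8 of 8 such fits, 66490119 in 3, 66490132 in 2 and 66490206 in 1. Sites 66490075 (-39.6, 0.11) and 66490120 (-35.9, 0.116) were not called. Without the second interferon-treated wild-type library the difference at 66490206 was -0.728. The wild-type libraries behind the value at 66490206 overlapped, with 14.7% and 30.8% after interferon, against 16.9% and 15.7% untreated.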

How the results depend on the processing

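Leaving out 1 library gave 9 to 19 called Mad2l1 sites for interferon in wild type, 0 to 3 for interferon in p150-knockout, and, untreated against wild type, 7 to 14 in p150-knockout, 0 to 2 in STAT2-null and 0 to 3 in ADAR2-null. With interferon against wild type it gave 6 to 14 in STAT2-null and 0 to 1 in ADAR2-null, and for p150-knockout against ADAR1-null 0 to 1 untreated and 0 to 3 with interferon. The differences of responses gave 0 to 1 in ADAR2-null, 4 to 9 in STAT2-null, 6 to 13 in p150-knockout and 3 to 13 in ADAR1-null. A fit to the compared groups alone called 6 sites for interferon in wild type and 0 in p150-knockout, 0 in untreated STAT2-null and ADAR2-null against wild type, 0 in untreated p150-knockout against ADAR1-null, and 4, 4 and 3 for the differences of responses in STAT2-null, p150-knockout and ADAR1-null. limma called 0 for interferon in p150-knockout, and 0 in STAT2-null and 2 in ADAR2-null, untreated against wild type. Without a minimum level the calls were 0 and 1 for interferon in p150-knockout and ADAR1-null, 2 for ADAR2-null against wild type with interferon, 2 for untreated p150-knockout against ADAR1-null and 6 for the p150-knockout difference of responses. A coverage minimum of 20 reads gave 0 for interferon in p150-knockout and 0 for untreated p150-knockout against ADAR1-null, and one of 100 reads gave 1 for interferon in ADAR1-null. The minimum level over all 20 libraries gave 2, 3 and 5 for interferon in p150-knockout, untreated ADAR2-null against wild type and untreated p150-knockout against ADAR1-null. The cause of these changes was not tested, except that fits with fewer libraries or groups have less data by construction.

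Same-numbered libraries did not deviate together (correlations of -0.109 to 0.088 over 604 sites), so no pairing by number was seen. Libraries handled together without shared deviations would look the same, so pairing is not excluded. With a replicate block 18 sites were called for interferon in wild type, where the call at 66490075 was lost, and 28 in ADAR2-null. It called 14 for STAT2-null against wild type with interferon and 12 for the p150-knockout difference of responses. The crossed block for ADAR2-null against wild type with interferon called 0.

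Mean levels moved with the way sites were averaged. As edited reads over all reads, the median over sites and the mean of sites at 1% or more, they were 0.318%, 0.159% and 0.347% in interferon-treated and 0.849%, 0.170% and 0.848% in untreated ADAR1-null, 0.611%, 0.278% and 0.654% in interferon-treated and 0.825%, 0.344% and 1.02% in untreated p150-knockout, and 6.37%, 1.08% and 8.96% in interferon-treated and 5.61%, 1.11% and 8.38% in untreated STAT2-null. In interferon-treated ADAR2-null they were 8.08%, 3.43% and 15.8%. The median and the mean of sites at 1% or more were 0.456% and 2.69% in untreated ADAR2-null, 3.89% and 16.5% in interferon-treated and 0.433% and 6.21% in untreated wild type. Of 296 settings of counts and means 213 left the value within 1.5 times the count or 1 SD of the mean. For the means, part of these settings could not move the value. Leaving out a library shifts a group mean by less than 1 SD by construction. The other coverage minimums kept every Mad2l1 site, because all had more reads than these minimums. Most of the remaining settings of the means, the other ways of averaging, did move the value. The 213 therefore cannot show that the means were stable. At named sites 155 of 648 settings lost the call and 0 turned the direction. The direction could turn only in fits that left out a library, because the other settings keep the same group means. Most named sites were also chosen for the largest differences among calls, so the absence of turns supports nothing by itself. The second block had the fewest reads and thus the widest counting error.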
